A study of Arabidopsis thaliana with 21 samples.

Results

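The comparison described here is the interaction between genotype and cold in Arabidopsis thaliana. It is the 4 °C minus 22 °C difference in the camta1/2/3 triple mutant, less the same difference in the wild type (WT). All 4 groups used were of the Col-0 ecotype, and RNA came from the whole aerial part of plants grown in soil for 3 weeks at 22 °C under a 12 h photoperiod. The groups were WT at 22 °C, WT after 24 h at 4 °C, camta1/2/3 at 22 °C and camta1/2/3 after 24 h at 4 °C, with 3 arrays each. These 12 arrays belong to a set of 21, whose other 9 are camta1/2, camta1/3 and camta2/3 double mutants at 22 °C. The labels name the mutated genes but not the alleles, and no double mutant was exposed to cold, so the interaction could be measured for the triple mutant alone. The labels call the arrays of a group biological replicates. They do not say how many plants were pooled or whether replicates were grown apart.

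CAMTA proteins (calmodulin-binding transcription activators) are transcription factors that bind calmodulin, and so link calcium signals to transcription. In Arabidopsis they are known for promoting the rapid cold induction of CBF genes, whose products switch on cold-regulated (COR) genes, and holding down salicylic acid defence at warm temperature. An interaction can therefore arise on either side. A gene may already differ between the genotypes in the warm and converge in the cold, or be alike in the warm and diverge only in the cold.

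Every probe set other than the array's own controls was a member, 22746 of 22810. Levels are log2 values after GCRMA normalization, on which a difference of 1 is a change of 2-fold; the lowest value in the table was 2.17, and values near it carry little information on level. Some probe sets repeat 1 low value on most arrays, which is taken here as the bottom of their range. A fold from or to it is a lower bound, and an interaction that uses it holds only for the values as given. The spread was pooled over all 7 groups of arrays, and arrays at the bottom show almost none. The standard error and p of such probe sets can therefore be too small. A probe set was called when limma's two-sided test gave an adjusted p under 0.05 (Benjamini-Hochberg over all 22746). Positive means a larger 4 °C minus 22 °C difference in camta1/2/3 than in WT. That describes genes whose rise was larger or whose fall was smaller in the mutant, and genes that fell in WT and rose in the mutant.

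The arrays had similar medians, between 4.86 and 5.0 in the 4 groups. The actin control's 3′ minus 5′ difference, a sign of RNA degradation or incomplete amplification, was 2.23 ± 0.21 in WT at 22 °C and 2.00 ± 0.62 in WT at 4 °C (SD, n = 3). It was 2.90 ± 0.13 and 3.11 ± 1.0 in camta1/2/3, with 4.25 on replicate 2 at 4 °C, so this measure moved with the genotype. With it as a covariate 431 interactions were called, against 447 without, 377 were shared (322 in the same class), and 6 of the named genes lost their call. Without both camta1/2/3 arrays numbered 2 there were 470 calls, of which 287 were shared (259 in the same class), and 20 named genes lost theirs. Of 4 leaf markers 3 were measured. On the log2 scale their summed level was 14.24 to 14.53 in WT and 13.73 to 14.24 in camta1/2/3 at 22 °C. At 4 °C it was lower, 13.12 to 13.36 in WT and 12.96 to 13.40 in camta1/2/3. Of 3 root markers 2 were measured: their sum was 7.61 to 8.52 in WT and 8.46 to 9.30 in camta1/2/3 at 22 °C, and 6.44 to 6.54 and 7.05 to 7.38 at 4 °C, and 1 of them, AT4G11290, was near the table's minimum throughout. Their part in the results was not tested. No probe set was named here for the mutated genes themselves, or for the flower and seed markers, so these were not analysed here. Because whole aerial parts were used, a change in the share of a cell type and a change in RNA per cell cannot be told apart.

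Unequal cold responses were called for 447 probe sets, 1.97% of those tested. The interaction was positive for 254 (1.12%) and negative for 193 (0.849%). Single comparisons gave far more calls: 5342 between the genotypes at 22 °C (23.5%), 4800 between them at 4 °C (21.1%), 5250 for cold in WT (23.1%) and 5053 for cold in camta1/2/3 (22.2%). Most differences between the genotypes, and most responses to cold, were thus not accompanied by a called interaction, which says only that no inequality was resolved with 3 arrays a group. At an unadjusted p under 0.05 the interaction would take in 3005 probe sets. The count of calls depended on the estimate of spread: 188 were called when only the 12 arrays compared were fitted, and 275 without replicate 2 of WT at 22 °C. Of the 447 called, 104 (23.3%) had all 4 group means under 5.

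Called interactions were sorted by where the genotypes differed. In 189 (42.3%) the difference between genotypes was called at 22 °C only, in 152 (34.0%) at 4 °C only, in 81 (18.1%) at both temperatures in the same direction, and in 25 (5.59%) at both in opposite directions. None was without a called difference at either temperature. The sorting uses the same arrays as the interaction and is a description, not a further test. The largest unadjusted p that was called was 0.000981 for the interaction but 0.0117 at 22 °C and 0.0105 at 4 °C, so an absence of calls at both temperatures was close to built in. The arrays of the genotypes did not overlap at 22 °C for 325 of the 447, against 32.5% of all probe sets, and at 4 °C for 282, against 27.9%. These values entered the calls and are no support for them. When classes were instead set by size, with one difference at least 2 times the other, 204 fell to 22 °C, 184 to 4 °C and 59 to neither. Single arrays moved the class sizes. Differences at 22 °C only numbered 105 without replicate 2 of WT at 22 °C, 119 without replicate 1 of camta1/2/3 at 22 °C and 122 without replicate 3 of WT at 4 °C. Those at 4 °C only numbered 236 without replicate 2 of WT at 4 °C and 231 without replicate 3 of camta1/2/3 at 4 °C. Those at both numbered 106 in all, and 64, 70, 61 and 67 without replicate 2 or 3 of WT at 22 °C or replicate 1 or 3 of WT at 4 °C.

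**Figure D1:**
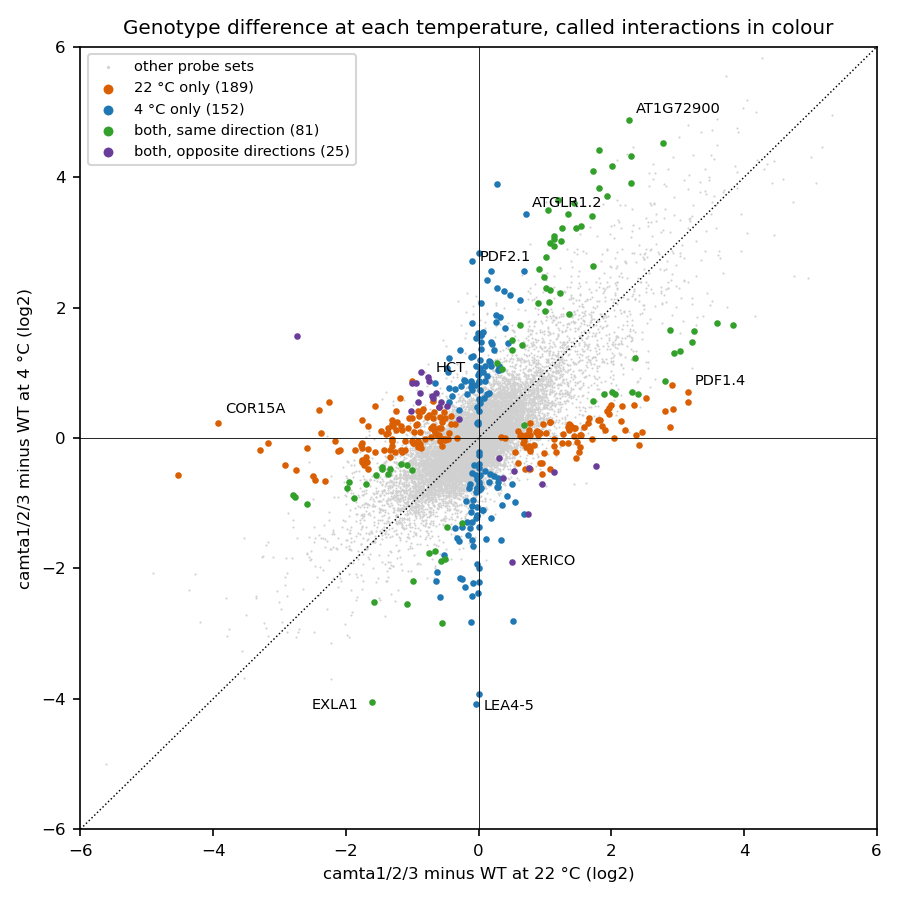
The difference between camta1/2/3 and WT at 22 °C (x axis, log2) is plotted against that at 4 °C (y axis, log2) for every probe set tested, with the 447 called interactions in colour by class. Probe sets on the dotted diagonal differed equally at both temperatures; the 189 of the first class lie along the horizontal axis and the 152 of the second along the vertical axis.

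The classes differed in which genotype responded to cold. Among the 106 positive interactions with a difference at 22 °C only, the median level in WT went from 6.62 at 22 °C to 5.34 at 4 °C, while camta1/2/3 read 5.36 and 5.46. By these medians the mutant in the warm stood at about the level that WT reached in the cold. This describes the class and not each gene: COR15A read 5.08 in the warm mutant and 12.07 in WT in the cold. The lack of a called difference at 4 °C is also part of how the class was chosen. In 57 of these 106 a fall in the cold was called in WT alone, in 19 it was called in both genotypes, and in 16 a rise was called in camta1/2/3 alone. In 7 both genotypes rose, and in 7 WT fell while the mutant rose.

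The 83 negative interactions with a difference at 22 °C only had the mutant high in the warm. Their median level in WT was 5.18 at 22 °C and 4.95 at 4 °C, against 6.95 and 4.89 in camta1/2/3. In 55 a fall in the cold was called in camta1/2/3 alone, in 11 in both genotypes, and in 9 a rise was called in WT alone. The lack of a called difference at 4 °C comes from the choice of the class and is not equality. In 11 of the 83 the cold arrays of the genotypes did not overlap, against 27.9% of all probe sets. The 83 were mainly transcripts high in the warm mutant that came down after 24 h at 4 °C. Their number was sensitive to single arrays: 33 without replicate 2 of WT at 22 °C, 52 without replicate 3 of camta1/2/3 at 22 °C, 55 without replicate 3 of WT at 4 °C and 126 without replicate 2 of camta1/2/3 at 22 °C. The 106 positive ones numbered 61 without replicate 1 of camta1/2/3 at 22 °C, 67 without replicate 3 of WT at 4 °C and 160 without replicate 1 of WT at 22 °C.

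The 74 negative interactions with a difference at 4 °C only had a median of 3.59 in WT at 22 °C and 5.72 at 4 °C, against 3.79 and 4.10 in camta1/2/3. Of these 42 rose in WT alone and 21 rose in both, less in the mutant. The 78 positive ones had medians of 4.47 and 4.39 in WT and of 4.57 and 6.11 in camta1/2/3. Of these 48 rose in camta1/2/3 alone, 11 fell in WT alone, 10 fell in both and 8 rose in both. A missing call at 22 °C is not equality. The warm arrays of the genotypes did not overlap for 13 of the 74 and 21 of the 78, against 32.5% of all probe sets. The negative ones numbered 139 without replicate 2 of WT at 4 °C, and the positive ones 145 without replicate 3 of camta1/2/3 at 4 °C. Across all 447, cold responses were called in camta1/2/3 alone for 168 (37.6%), in WT alone for 146 (32.7%), in both for 108, and in opposite directions for 25 (5.59%).

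**Figure D2:**
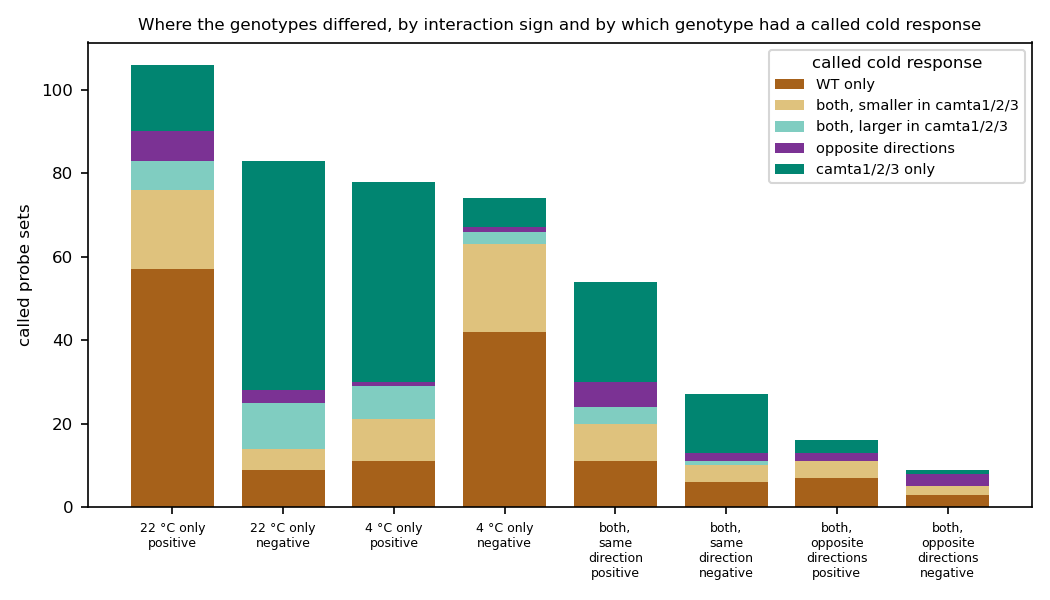
Bars count the called probe sets of each class and sign of interaction, split by the genotype in which a cold response was called. The 106 positive and 74 negative probe sets that differ at 22 °C only and at 4 °C only are mostly responses called in WT, and the 83 negative and 78 positive ones of the same classes mostly responses called in camta1/2/3.

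Genes could be named for 236 of the called probe sets, which stand for 234 genes, 1.75% of the 13355 genes named. Of these 47 carry a symbol. The others are known here by locus alone, and no function is given for them. Genes described in detail below kept their call in all alternative fits that included them, unless a number of losses is given.

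Among genes that differed at 22 °C only, the largest named interaction was that of COR15A (AT2G42540), a cold-regulated chloroplast protein that protects membranes during freezing. COR15A read 9.81, 8.85 and 8.33 on the WT arrays at 22 °C and 12.45, 12.56 and 11.20 at 4 °C. In camta1/2/3 the COR15A values were 4.55, 5.25 and 5.43 at 22 °C and 12.36, 12.05 and 12.49 at 4 °C. The mutant lay below every WT array in the warm, by 15.1-fold, and overlapped WT in the cold. The cold rise was 8.42-fold in WT and 149-fold in camta1/2/3, and the interaction was 4.15 ± 0.80 (SE, adjusted p = 0.0129). The difference between genotypes was called at 22 °C, where the mutant was lower. At 4 °C it was 0.23 ± 0.56 (SE, adjusted p = 0.894), which is no call and not equality. COR15B (AT2G42530), the adjacent paralog, had an interaction of 1.31 ± 0.64 that was not called (adjusted p = 0.408). Its means were 9.20 ± 0.50 and 12.56 ± 0.33 in WT and 7.87 ± 0.76 and 12.54 ± 0.50 in the mutant, the same arrangement with a smaller gap at 22 °C (SD, n = 3). Whether probes of one paralog also read the other was not tested.

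AT1G07440 read 7.82, 7.73 and 8.45 in WT at 22 °C and 4.91, 5.07 and 5.13 at 4 °C. Its values in camta1/2/3 were 4.87, 4.44 and 4.80 at 22 °C and 4.92, 4.94 and 4.70 at 4 °C. WT in the warm stood apart from the other 3 groups, which lay close together. The interaction was 3.11 ± 0.30 (adjusted p = 5.56e-05). The gene next to it on chromosome 1, AT1G07450, was also called in this class, at 0.45. AT1G13650 differed in that both genotypes fell, from 9.78 ± 0.36 to 3.65 ± 0.00 in WT and from 6.6 ± 0.08 to 3.57 ± 0.26 in camta1/2/3 (SD, n = 3). It repeated the value 3.65 in the cold, so both falls are lower bounds, and the interaction of 3.10 ± 0.31 (adjusted p = 6.91e-05) rests on the difference in the warm. For AT5G44530 the means were 7.13 ± 0.08 and 6.26 ± 0.39 in WT and 4.38 ± 0.15 and 5.76 ± 0.34 in camta1/2/3: it fell in one genotype and rose in the other, and the interaction was 2.26 ± 0.42 (adjusted p = 0.0115). AT1G30250 had an interaction of 1.91 ± 0.30 (adjusted p = 0.00422).

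Beta-expansins, proteins that loosen the plant cell wall, were among the positive genes of this class. EXPB1 read 5.20, 5.29 and 5.87 in WT at 22 °C and 2.97, 2.63 and 2.97 at 4 °C. In camta1/2/3 EXPB1 had a mean of 4.09 ± 0.10 at 22 °C and then read 2.97, 2.97 and 3.10. The genotypes were apart in the warm and overlapped in the cold at the bottom of the probe set's range, and the interaction was 1.52 ± 0.24 (adjusted p = 0.00422). EXPB3 fell in WT from 6.64 ± 0.31 to 5.73 ± 0.18, while camta1/2/3 read 5.59 ± 0.32 and 6.04 ± 0.13 with no called response. In the cold its mutant arrays lay above those of WT, by 1.23-fold, but this difference was not called (adjusted p = 0.39). The interaction of 1.35 ± 0.31 (adjusted p = 0.0382) was lost in 14 of 24 alternatives. The remaining 5 positive genes with a symbol lost their call in 3 to 16 alternatives. They were SFP2, of the sugar porter family, at 1.61 ± 0.33; BIM1, a bHLH factor of brassinosteroid signalling, at 1.06 ± 0.23; UBC20, a ubiquitin-conjugating enzyme, at 0.92 ± 0.21; the glutathione transferase GSTU18 at 0.79 ± 0.19; and the thionin THI2.1, an antimicrobial peptide induced by jasmonate, at 0.62 ± 0.14. THI2.1 was low in every group, with means from 3.43 to 3.84.

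Of the genes high in the warm mutant with no called difference in the cold, PDF1.4 gave the clearest values. It belongs to the plant defensin family of small antifungal peptides. PDF1.4 read 5.0, 5.03 and 4.93 in WT at 22 °C and 3.95, 4.33 and 4.34 at 4 °C. Its values in camta1/2/3 were 8.05, 8.23 and 8.12 at 22 °C and 4.37, 5.58 and 4.79 at 4 °C. The mutant was 8.86-fold above WT in the warm. In the cold its 3 arrays still lay above those of WT, by 1.63-fold, but this difference was not called (adjusted p = 0.0820). The interaction was -2.44 ± 0.39 (adjusted p = 0.00422).

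ATIM, the Arabidopsis TIMELESS protein, read 5.01, 5.40 and 4.86 in WT at 22 °C and 4.78, 4.66 and 5.14 at 4 °C. In camta1/2/3 ATIM read 6.90, 7.30 and 6.80 at 22 °C and 5.0, 5.06 and 4.92 at 4 °C. Only the warm mutant stood apart, and the interaction was -1.78 ± 0.28 (adjusted p = 0.00422). LUP5, a triterpene cyclase related to lupeol synthase, had the same arrangement, with 7.29 ± 0.83 in the warm mutant and means from 4.84 to 4.95 elsewhere. Its interaction of -2.53 ± 0.53 (adjusted p = 0.0225) was lost without replicate 2 of WT at 22 °C and without replicate 1 or 3 of camta1/2/3 at 22 °C, among 4 of 24 alternatives. AT1G72060 (-2.48 ± 0.57), AT2G37130 (-2.11 ± 0.47) and AT4G32870 (-2.05 ± 0.45) lost their calls in 9, 9 and 6 alternatives. PCME, an esterase that removes the methyl group from prenylated proteins, rose in WT from 3.88 ± 0.22 to 4.68 ± 0.25 and fell in camta1/2/3 from 5.60 ± 0.19 to 4.66 ± 0.60. Its interaction was -1.73 ± 0.37, lost in 5 alternatives. EPC1, a glycosyltransferase needed for cell adhesion, was at -0.87 ± 0.20, lost in 10.

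Turning to genes with no called difference in the warm, the strongest loss of cold induction was in LEA4-5 (AT5G06760). It is a late embryogenesis abundant protein, of a class that protects cells during water deficit. LEA4-5 read 2.61, 2.42 and 2.42 in WT at 22 °C and 8.85, 7.44 and 7.94 at 4 °C. In camta1/2/3 it read 2.42, 2.42 and 2.49 at 22 °C and 3.50, 3.96 and 4.52 at 4 °C. Both genotypes started at the bottom of the probe set's range, where 2.42 was repeated, and rose, by at least 48.3-fold in WT and at least 2.93-fold in the mutant. The cold groups lay above that value and did not overlap, with a difference of 17.0-fold, and the interaction was -4.04 ± 0.38 (adjusted p = 3.94e-05). Its SD at 4 °C was 0.71 in WT and 0.51 in camta1/2/3, against at most 0.14 in every warm group. The pooled standard error and p of LEA4-5 are thus too small. Cold raised both COR15A and LEA4-5, and their interactions had opposite signs, with the difference between genotypes called at 22 °C for COR15A and at 4 °C for LEA4-5.

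AT2G24560 resembled LEA4-5, with all warm arrays at the table's minimum. Its WT arrays read 2.17 at 22 °C throughout and 7.81, 7.42 and 5.92 at 4 °C, and its camta1/2/3 arrays read 2.17 throughout and then 2.66, 3.22 and 3.50. The interaction was -3.92 ± 0.46 (adjusted p = 0.000314). Its SD at 4 °C was 1.0 in WT and 0.43 in camta1/2/3, against 0 in every warm group, so the pooled standard error and p are too small. AT4G33905, at -2.36 ± 0.22 (adjusted p = 3.94e-05), and AT5G15190, at -2.21 ± 0.33 (adjusted p = 0.00286), also went from under 3 to over 5 in WT, and in the mutant reached only 2.97 ± 0.34 and 3.20 ± 0.56 at 4 °C (SD, n = 3). AT2G17280 was at -2.08 ± 0.39, lost when only the 12 arrays were fitted. POLA3, a DNA primase subunit, was of another kind. Its means were 7.25 ± 0.19 and 7.35 ± 0.13 in WT and 7.14 ± 0.14 and 6.31 ± 0.09 in camta1/2/3, a fall called in the mutant alone, with an interaction of -0.94 ± 0.17 (adjusted p = 0.0107).

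The other 5 negative genes with a symbol in this class had interactions between -1.17 and -0.72. MPC, a maternally expressed gene with the C-terminal domain of poly(A)-binding protein, rose in WT alone, to 4.05 ± 0.51 from 2.87 ± 0.06, with an interaction of -1.17 ± 0.22 that was lost in 1 alternative, the fit of the 12 arrays. UBP21, a deubiquitinating enzyme, was at -1.04 ± 0.22 and was lost in 4 alternatives. XTH19, an enzyme that cuts and rejoins cell wall xyloglucan, rose in WT alone and was at -0.86 ± 0.19, lost in 10. The glycosyltransferase UGT85A4 was at -0.76 ± 0.16, lost without replicate 3 of WT at 22 °C, replicate 3 of WT at 4 °C or replicate 1 of camta1/2/3 at 22 °C. The cytochrome P450 CYP71B26 was at -0.72 ± 0.17, lost in 12.

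**Figure D3:**
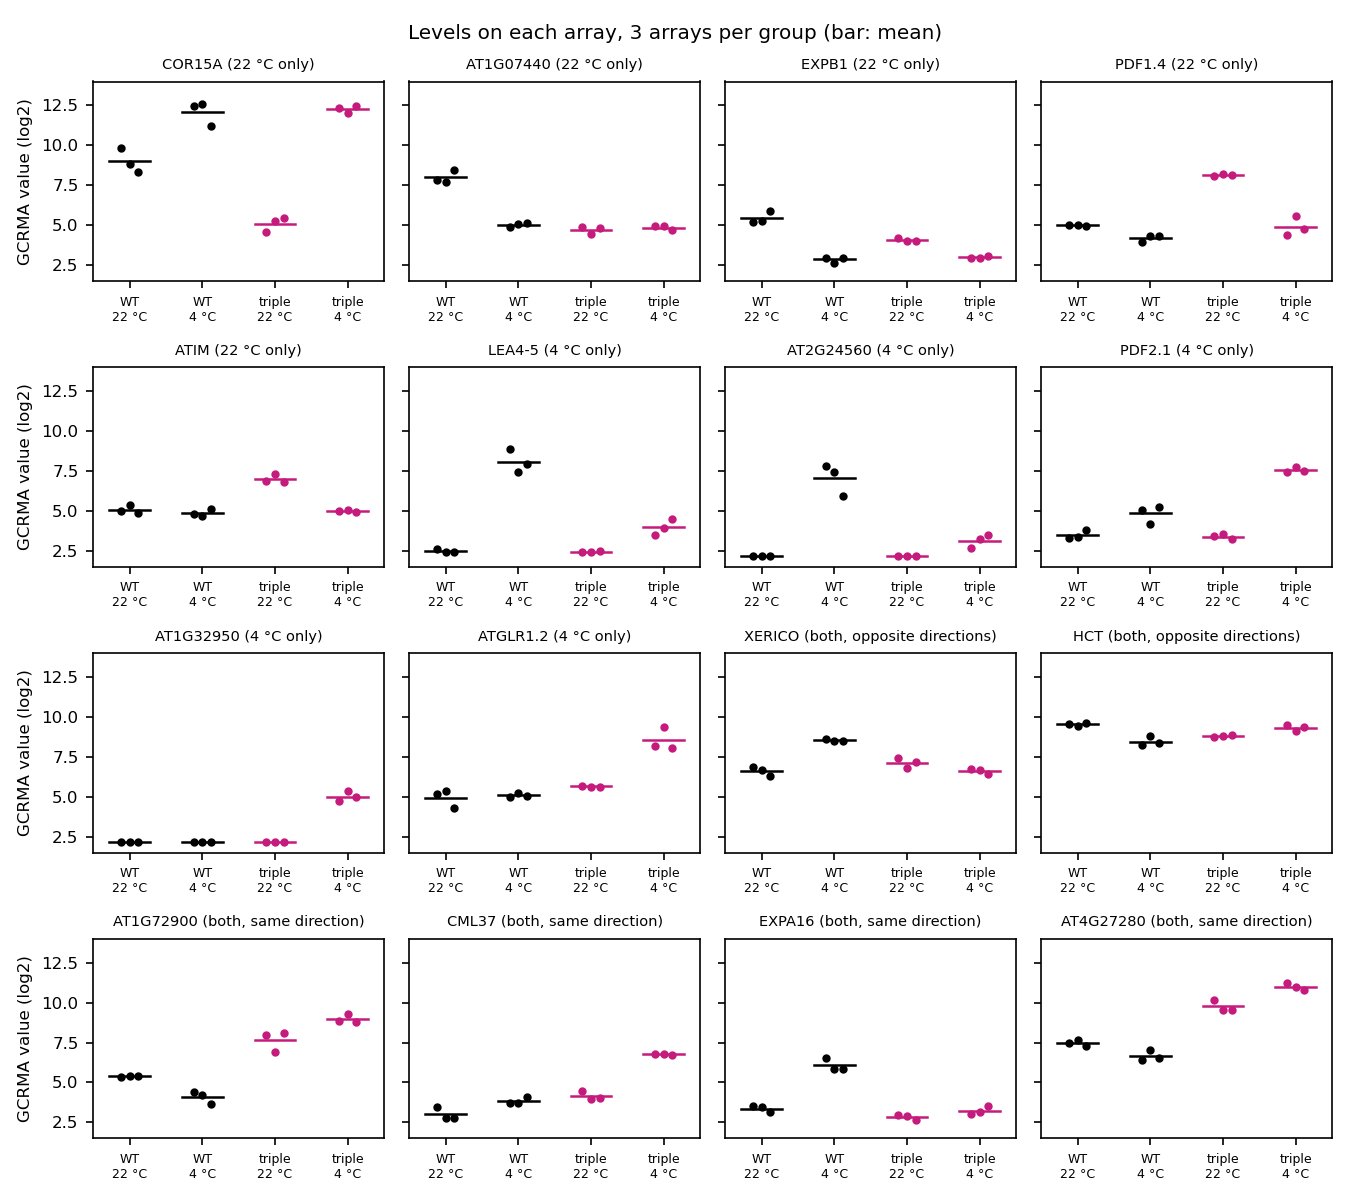
Each panel plots the log2 GCRMA value of 1 gene on the 3 arrays of WT (black) and camta1/2/3 (magenta) at 22 °C and 4 °C, with a bar at the mean. COR15A and PDF1.4 differ between genotypes in the warm and close in on each other in the cold, LEA4-5 and PDF2.1 differ in the cold alone, and XERICO and HCT change order.

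Transcripts that diverged upward in the cold mutant included another defensin. PDF2.1 read 3.31, 3.35 and 3.80 in WT at 22 °C and 5.07, 4.21 and 5.25 at 4 °C. In camta1/2/3 PDF2.1 read 3.42, 3.53 and 3.22 at 22 °C and 7.42, 7.75 and 7.48 at 4 °C. The warm groups overlapped and the cold groups did not: cold raised it 2.56-fold in WT and 17.9-fold in the mutant, with an interaction of 2.80 ± 0.31 (adjusted p = 0.000205). PDF1.4 and PDF2.1 had interactions of opposite sign, with the genotypes apart in the warm for PDF1.4 and in the cold for PDF2.1.

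AT1G32950 read 2.17 to 2.19 on all 9 arrays of the other 3 groups and 4.70, 5.33 and 5.0 in camta1/2/3 at 4 °C. Its interaction was 2.83 ± 0.14 (adjusted p = 3.78e-08). The SD was 0.32 in camta1/2/3 at 4 °C and at most 0.01 in every other group. The pooled standard error and p are thus too small for this gene. ATGLR1.2, of the glutamate receptor-like channel family, read 5.18, 5.38 and 4.27 in WT at 22 °C and 4.99, 5.20 and 5.06 at 4 °C, against 5.70, 5.63 and 5.62 and then 8.15, 9.34 and 8.08 in camta1/2/3. In the warm the mutant arrays already lay above those of WT, by 1.63-fold, but this difference was not called (adjusted p = 0.0954). Cold raised the mutant 7.33-fold, and no response was called in WT. The interaction of 2.73 ± 0.41 (adjusted p = 0.00285) was lost when only the 12 arrays were fitted (adjusted p = 0.0561). AT2G23270, at 2.39 ± 0.40 (adjusted p = 0.00610), was lost in that fit too. Its WT arrays read 3.93 at 22 °C and 4.02 at 4 °C throughout, and camta1/2/3 at 4 °C read 5.56, 6.95 and 7.24. The SD of that last group was 0.9, against at most 0.2 in every other group, so the pooled standard error and p are too small. AT2G30930 reached the same class by another route, since it fell in WT from 7.22 ± 0.23 to 4.70 ± 0.24 and no fall was called in camta1/2/3, at 7.26 ± 0.39 and 6.77 ± 0.11. Its interaction was 2.02 ± 0.36 (adjusted p = 0.00963).

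XTH20, of the same enzyme family as XTH19, read 3.69, 3.79 and 3.79 in WT at 22 °C and 3.94, 3.89 and 4.24 at 4 °C. In camta1/2/3 XTH20 read 3.79 on all 3 warm arrays and 6.06, 5.16 and 5.60 in the cold. The value 3.79 was repeated in the warm and is the bottom of its range. A rise was called in the mutant alone, of at least 3.52-fold, with an interaction of 1.55 ± 0.22 (adjusted p = 0.00240). SHB1, which acts in light signalling, and BRL1, a brassinosteroid receptor, were at 1.01 ± 0.09 (adjusted p = 3.29e-05) and 1.0 ± 0.13 (adjusted p = 0.00108). Both were low, with no mean of the 4 groups above 3.80. ATCRT1 was at 1.36 ± 0.23, the transcription factor bZIP44 at 0.76 ± 0.14 and the glycosyltransferase UGT76D1 at 0.60 ± 0.11, each lost only when the 12 arrays were fitted. FRA3, an inositol polyphosphate phosphatase of secondary wall formation, was at 0.98 ± 0.21, lost in 7 alternatives. LCR, an F-box protein of leaf shape (LEAF CURLING RESPONSIVENESS), was at 0.97 ± 0.21, lost in 9. IAA34, of the Aux/IAA repressors of auxin response, was called at 0.22 ± 0.05 with means from 2.26 to 2.47, at the bottom of the scale, and was lost in 5.

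The order of the genotypes reversed between the temperatures in 25 probe sets, 16 with a positive and 9 with a negative interaction. XERICO (AT2G04240), a RING-H2 protein that raises abscisic acid levels, was the largest negative one with a gene. XERICO read 6.87, 6.70 and 6.30 in WT at 22 °C and 8.62, 8.47 and 8.47 at 4 °C. In camta1/2/3 it read 7.42, 6.79 and 7.18 at 22 °C and 6.72, 6.69 and 6.45 at 4 °C. The warm groups overlapped although a difference of 0.51 was called (adjusted p = 0.0450), and in the cold the mutant was 3.73-fold lower with no overlap. WT rose while camta1/2/3 fell, and the interaction was -2.41 ± 0.24 (adjusted p = 7.47e-05).

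HCT, a hydroxycinnamoyltransferase of lignin synthesis, showed the opposite order. HCT read 9.58, 9.45 and 9.60 in WT at 22 °C and 8.21, 8.80 and 8.36 at 4 °C. In camta1/2/3 HCT read 8.72, 8.78 and 8.87 at 22 °C and 9.51, 9.12 and 9.35 at 4 °C. WT fell and the mutant rose, with no overlap at either temperature, and the interaction was 1.62 ± 0.22 (adjusted p = 0.00138). AT5G63180 was at 1.89 ± 0.26 (adjusted p = 0.00149) and AT5G26770 at -1.91 ± 0.26 (adjusted p = 0.00158). In both a response was called in WT and not in camta1/2/3. ULT1, a SAND-domain protein that limits floral meristem size, was at 0.97 ± 0.21, lost in 8 alternatives. Others named by the rule were AT5G14120 (1.69 ± 0.35, lost in 4), AT5G52190 (1.12 ± 0.23, lost in 1), AT3G47380 (1.07 ± 0.22, lost in 4), AT4G22740 (-0.97 ± 0.16, lost in 1) and AT3G45770 (-0.61 ± 0.13, lost in 5). The largest positive interaction of the whole array, 4.30, was also in this class, on a probe set with no gene named here.

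Genes that differed in the same direction at both temperatures, by unequal amounts, made up the remaining 81. AT1G72900 and AT1G72940 lie close together on chromosome 1, and AT1G72920, between them, was called as well, at 1.74. AT1G72900 read 5.31, 5.40 and 5.42 in WT at 22 °C and 4.42, 4.19 and 3.67 at 4 °C. In camta1/2/3 it read 7.95, 6.91 and 8.08, then 8.85, 9.28 and 8.80. The mutant was higher on every array, by 4.82-fold in the warm and 29.5-fold in the cold, with an interaction of 2.61 ± 0.41 (adjusted p = 0.00365). AT1G72940 moved alike, with an interaction of 2.60 ± 0.29 (adjusted p = 0.000224) and differences of 3.51-fold and 21.4-fold.

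AT4G27280 was also higher in the mutant at both temperatures, at 9.76 ± 0.36 and 10.98 ± 0.22 against 7.46 ± 0.18 and 6.65 ± 0.33 in WT, with an interaction of 2.04 ± 0.35 (adjusted p = 0.00635). CML37, a calmodulin-like calcium sensor, read 3.48, 2.80 and 2.80 in WT at 22 °C and 3.69, 3.69 and 4.08 at 4 °C, against 4.49, 3.96 and 4.02 and then 6.76, 6.81 and 6.73 in camta1/2/3. CML37 rose in both genotypes, by 1.73-fold and 6.11-fold, with an interaction of 1.82 ± 0.31 (adjusted p = 0.00615). AT1G66090 (2.38 ± 0.54) and AT1G78410 (2.08 ± 0.49) lay in the same direction and lost their calls in 10 and 13 alternatives. MSRB9, a methionine sulfoxide reductase that repairs oxidized proteins, fell in WT alone and was at 1.63 ± 0.37, lost in 12. HAT2, an auxin-responsive homeodomain factor, likewise fell in WT alone and was at 1.17 ± 0.24, lost only in the fit of the 12 arrays.

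Other positive genes of this class were lower in the mutant at both temperatures, with a smaller gap in the cold. They were JAL23, a jacalin-related lectin, at 1.92 ± 0.41, the endoglucanase family member GH9C2 at 1.21 ± 0.25, and SWEET17, a vacuolar fructose transporter, at 0.99 ± 0.24, lost in 6, 4 and 15 alternatives.

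Expansins appeared among the negative genes as well. EXPA16, an alpha-expansin, read 3.52, 3.44 and 3.14 in WT at 22 °C and 6.53, 5.84 and 5.83 at 4 °C. In camta1/2/3 EXPA16 read 2.93, 2.87 and 2.66, then 3.01, 3.13 and 3.54. It rose 6.50-fold in WT, with no called response in the mutant, and the interaction was -2.29 ± 0.26 (adjusted p = 0.000259). Its difference between genotypes at 22 °C was only -0.55, on low values, and was barely called (adjusted p = 0.045). EXLA1, an expansin-like protein, rose in WT from 6.72 ± 0.44 to 9.43 ± 0.72 and read 5.11 ± 0.19 and 5.38 ± 0.12 in camta1/2/3. Its interaction of -2.44 ± 0.53 (adjusted p = 0.0276) was lost in 10 alternatives.

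Several negative genes of this class were high in the warm mutant and came part of the way down in the cold. AT1G21000 was at 9.62 ± 0.08 and 8.10 ± 0.37 in camta1/2/3 against 7.21 ± 0.31 and 7.42 ± 0.12 in WT, with an interaction of -1.73 ± 0.24 (adjusted p = 0.00158). ARL, an ARGOS-like regulator of organ growth, was at -1.74 ± 0.38, the cation/proton exchanger CHX16 at -1.71 ± 0.41, and NRT2.5, a high-affinity nitrate transporter, at -1.13 ± 0.24. They were lost in 7, 13 and 3 alternatives. APG8A, an ATG8 protein of the autophagosome membrane, rose in WT and fell in the mutant, at -1.16 ± 0.25, and was lost in 9. GIS, a zinc finger factor of trichome formation, instead rose in both genotypes, from 3.23 ± 0.16 to 5.66 ± 0.36 in WT and from 2.24 ± 0.09 to 3.46 ± 0.32 in camta1/2/3, at -1.21 ± 0.25, and was lost in 5.

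**Figure D4:**
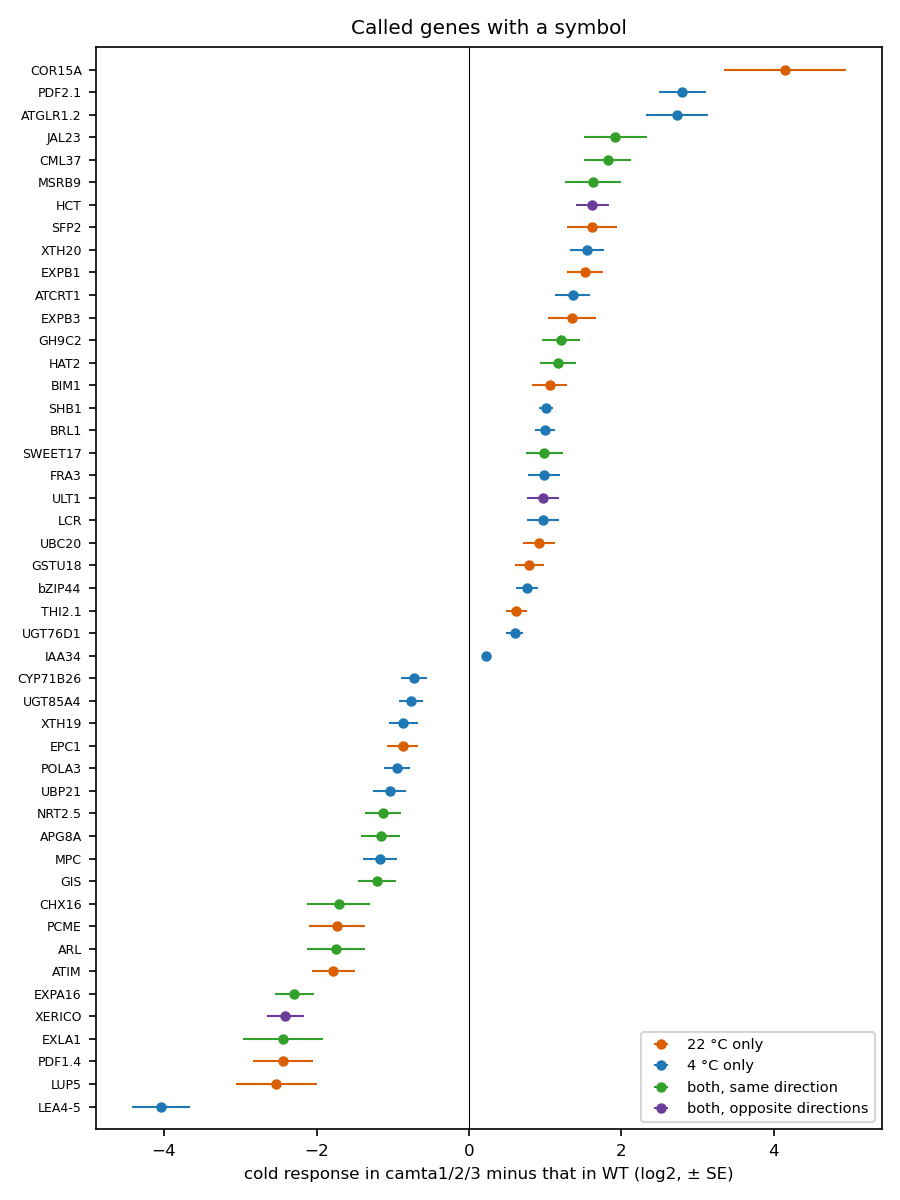
The interaction, with its standard error, is plotted for the 47 called genes that carry a symbol, coloured by the temperature at which the genotypes differed. COR15A at 4.15 and LEA4-5 at -4.04 are the ends of the range, and the 4 expansins lie on both sides of 0.

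Few members of the gene groups were called, and every count below describes a small number of measured members. The share to set beside them is the 1.75% of named genes that were called. Of 19 measured expansins 4 were called, 2 positive (EXPB1 and EXPB3) and 2 negative (EXPA16 and EXLA1), and the median over the 19 was 0, as over all probe sets. Of 10 xyloglucan enzymes 2 were called, XTH20 positive and XTH19 negative. Calls were made for 1 of 9 calmodulin and calcium-binding proteins (CML37), 1 of 7 LEA proteins (LEA4-5), 1 of 13 glutathione transferases, 1 of 24 cytochromes P450 and 2 of 43 UDP-glycosyltransferases. The share called was 21.1% of expansins, 20% of xyloglucan enzymes, 11.1% of calmodulin and calcium-binding proteins and 14.3% of LEA proteins. It was 7.69% of glutathione transferases, 4.17% of cytochromes P450 and 4.65% of UDP-glycosyltransferases. These shares lie above 1.75%, but they rest on 1 to 4 calls each and were not tested. No member was called among 43 AP2/ERF factors, 7 WRKY factors, 29 serine carboxypeptidase-like proteins or 20 beta-glucosidases. At a share of 1.75%, groups of these sizes may well hold no call, so nothing is read from them.

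Of 8 measured genes of the COR and CBF regulon, COR15A and LEA4-5 were called and 6 were not, although cold raised all 8 in both genotypes by the test of each. The median interaction was -0.12, against 0 over all probe sets. Among these LTI30 and COR47, dehydrins, had interactions of 0.37 ± 1.06 and 0.40 ± 0.63 (adjusted p = 0.956 and 0.865). Their group means at 4 °C were 13.32 and 13.13 in WT and 13.15 and 12.69 in camta1/2/3. The standard error of LTI30 leaves room for a difference of several fold in either direction.

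Of 5 measured genes of jasmonate and ethylene defence, 3 were called: PDF2.1 and THI2.1 positive and PDF1.4 negative, and the median was 0.62. PDF1.2 was not (0.76 ± 0.80, adjusted p = 0.755). None of 6 genes of pattern-triggered immunity was called, and the median interaction was 0.20. Of these 6 genes, 3 differed between the genotypes at 22 °C and 4 at 4 °C, against 23.5% and 21.1% of all probe sets. For example BIK1, a receptor-like cytoplasmic kinase of immune signalling, was higher in camta1/2/3 by 2.06 at 22 °C and 2.38 at 4 °C, with an interaction of 0.33 ± 0.15 (adjusted p = 0.355). WRKY53, a senescence and defence factor, had the widest estimate of them, -2.15 ± 0.97 (adjusted p = 0.355). All 3 measured genes of glucosinolate synthesis had negative interactions with an unadjusted p under 0.05. Over all 22746 probe sets 3005 had such a p, in either direction. None of the 3 was called, with BCAT4 at -0.79 ± 0.35 and UGT74B1 at -0.78 ± 0.23 (adjusted p = 0.335 and 0.108). No call was made among 5 genes of flavonoid synthesis, 4 of photosynthesis, 5 of ribosome biogenesis or the 3 measured CAMTA genes that were not mutated. Nor was one made for SARD4 and SAG101, the 2 measured genes listed under salicylic and N-hydroxypipecolic acid synthesis and control.

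The double mutants are not part of the contrast, but their arrays enter the estimate of spread behind its calls, and their differences share the WT arrays. They give a view of the same genes at 22 °C. The classes were chosen on the triple mutant's own difference from WT, so its medians are fixed by that choice and are given for reference. Over the 83 negative genes of the class that differed at 22 °C only, the median gap to WT was 1.35 for the triple mutant. It was 0.66 for camta2/3, 0.48 for camta1/3 and 0.27 for camta1/2. Over the 106 positive ones it was -1.13, -0.74, -0.41 and -0.38 in the same order. Among the doubles, the median of camta2/3 was farthest from WT in both sets. Over the 152 probe sets that differed at 4 °C only, the medians by sign lay between -0.02 and 0.02 in all 4 mutants. COR15A had a mean of 9.0 ± 0.75 in WT and 5.08 ± 0.46 in the triple mutant. Among the doubles it stood at 6.24 ± 0.55 for camta2/3, 7.76 ± 0.97 for camta1/3 and 7.99 ± 0.95 for camta1/2. PDF1.4 differed in pattern, with 8.13 ± 0.09 in the triple mutant, 5.97 ± 0.25 in camta2/3, and 4.92 ± 0.48 and 4.95 ± 0.31 in the other doubles. ATIM was at 4.97 ± 0.28, 5.04 ± 0.15 and 5.28 ± 0.36 in the doubles, near the 5.09 ± 0.28 of WT, against 7.0 ± 0.26 in the triple mutant (SD, n = 3 throughout).

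**Figure D5:**
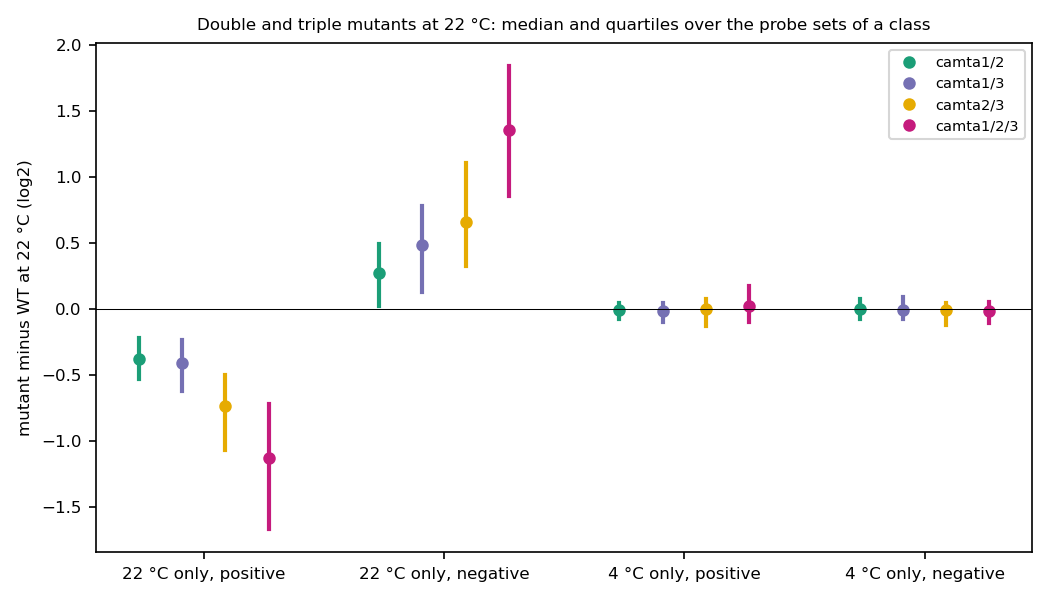
Points are medians, and bars the quartiles, of the difference from WT at 22 °C (log2) over the probe sets of 4 classes, for the 3 double mutants and the triple mutant. In the classes that differ at 22 °C, which were chosen on the triple mutant, the camta2/3 medians lie at -0.74 and 0.66; in the classes that differ at 4 °C all lie near 0.

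Called genes were spread over the chromosomes, at 1.96% of the named genes of chromosome 1, 2.19% of chromosome 2, 1.75% of chromosome 3, 2.04% of chromosome 4 and 1.64% of chromosome 5. Of 5814 pairs of adjacent named genes, 2 were called together, AT1G07440 with AT1G07450 and AT4G05060 with AT4G05070. Each pair shared the sign of its interaction. Whether 2 pairs are more than the 1.75% of named genes called would give was not tested, and nothing is read from them.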

How the data were processed

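Total RNA was amplified, labelled with biotin and hybridized to arrays, per the labels' protocols. The authors deposited log2 intensities after GCRMA; the submitters' processing notes name GCRMA and limma without versions. No value was changed and no filter on low values applied, but 64 control probe sets were left out. Genes were named from the platform's probe table: 13513 probe sets had 1 gene, 503 several and 8730 were not listed, and the last 2 kinds were tested without a name. A gene with several probe sets (147) is given by that of the highest mean. RefSeq's annotation (TAIR10.1) gave symbols, synonyms and neighbours. Families were matched on symbols and synonyms, so members lacking those words were missed.

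In R 4.3.3, limma 3.58.1 (lmFit, eBayes) estimated 7 group means from the 21 arrays, leaving 14 residual degrees of freedom beside a prior of 0.954. The interaction, both genotype differences and both cold responses were tested two-sided, with Benjamini-Hochberg adjustment over 22746 probe sets each. The script was tested on simulated data. No pair of arrays was identical. Precision is limited by 3 arrays a group, and the p-values measure the spread between these arrays.

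Named genes were, per class and sign, the 5 largest called interactions (first leaving out genes whose 4 group means were all under 5), up to 4 called members of a list or family, and COR15A and COR15B. All 47 called genes with a symbol were added after their values were seen. The members, lists and rule were chosen with earlier results of these data known, and the patterns of 2 families were corrected after the data were seen. Same-numbered arrays were not paired: the correlation of their deviations was over 0.1 in 4 of 18 pairs. Promoter sequences were not used here.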

Additional observations from a re-analysis of the deposited data

Results flagged for a closer look

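Cold responses called in opposite directions in the genotypes were found for 25 probe sets, 16 with a positive and 9 with a negative interaction, and 13 of them have a gene. Only 2 of the positive and 3 of the negative ones also belong to the 25 in which the order of the genotypes reversed. Of the genes described above, 9 were picked out for this reason, and in each the difference between the responses is the tested interaction itself. WT fell and camta1/2/3 rose for AT1G72900 (2.61), AT1G72940 (2.60), AT5G44530 (2.26), AT4G27280 (2.04) and HCT (1.62). WT rose and camta1/2/3 fell for XERICO (-2.41), PCME (-1.73), APG8A (-1.16) and AT4G22740 (-0.97). Groups of 3 arrays were not tested for an outlying array.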

How the results depend on the processing

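No direction was reversed among the 75 named genes under 24 alternatives: 12 settings of the data or model, and 12 fits that each left out 1 array. Of the 74 called, 29 kept their call in every alternative that included them and 45 lost it in at least 1, 43 of them when only the 12 arrays compared were fitted. Fits without 1 array lost from 8 (replicate 1 of WT at 22 °C) to 25 calls (replicate 1 of camta1/2/3 at 22 °C). Calls in all numbered 275 to 555 in those fits, positive calls 160 to 303, differences at 22 °C only 105 to 264, at 4 °C only 106 to 236, at both 61 to 128 and at neither 0 to 1. With only the 12 arrays, those counts were 188, 103, 84, 65 and 39, and 158 of the 188 were among the 447. At an adjusted p under 0.01 they were 134, 76, 48, 61 and 25. For interactions of at least 2-fold they were 297, 167, 122 and 92, and with 1 probe set for each named gene, where fewer features are tested, 210, 110, 84, 76 and 50. With the actin difference as a covariate 11 calls had no called difference at either temperature. Quantile normalization gave 514 calls and median centring 440, with 51.9% and 51.6% positive against 56.8%. A replicate block gave 491 calls; the numbers share no known origin, and 6 of 12 arrays correlated best with their own number. The planned search for promoter motifs was not run, since no promoter sequences were used here. For other changes than those above the cause was not tested. Signal near 2.17 limits the low genes.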
